A study of Amphiprion ocellaris with 30 samples.

Results

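In a table of 22816 genes measured in 30 RNA libraries of clownfish larvae, 4 genes varied widely between libraries of the same treatment while their treatment means stayed close. They were chosen by measured values: a standard deviation (SD) of at least 0.8 within each of the 3 treatment groups, a mean over all libraries of at least 6, a difference below 0.3 in size between the SR9243 and DMSO means, and a difference below 0.8 in size between the T3 and DMSO means. The 200 genes with the highest mean were left out. The SD minimum alone left 83 genes, the mean minimum left 34 of these, leaving out the most abundant genes removed none, the SR9243 limit left 7 and the T3 limit left 4. The 4 genes are ENSAOCG00000005916, ENSAOCG00000014291, ENSAOCG00000004792 and ENSAOCG00000017064. The table carries Ensembl gene IDs only, and the reference gene table used here, with 28286 genes, paired 0 of the 22816 IDs with a symbol. No name, position, sequence or function is therefore given for them.

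The libraries were made from entire wild-type larvae of Amphiprion ocellaris, 10 per group, taken at day 5 of treatment with the solvent DMSO (dimethyl sulfoxide, 0.0001%), with SR9243 at 1e-07 M or with T3 at 1e-07 M. All larvae were kept in beakers at 27°C. SR9243 is named in the series title as an LXR antagonist. LXR (liver X receptor) binds oxidised cholesterol and switches on genes of sterol and fat handling. T3, or triiodothyronine, is a thyroid hormone that binds receptors in the nucleus and starts the metamorphosis of fish larvae. The titles of the T3 libraries also hold the unexplained tag IOP, and it is not known whether SR9243 and T3 libraries received the solvent. The labels do not say whether a library is 1 larva, nor give its clutch, beaker, sex or sampling time, so p-values measure the spread between these libraries only.

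RNA of a whole animal sums all of its tissues, and a level in such a library depends both on how many cells make the transcript and on how much each of them makes. These cannot be told apart here. Values are the authors' variance-stabilised counts, which behave like log2 values except near the bottom of the scale, where distances are compressed. Every library had the same lowest value, 2.88, taken here as a count of 0. Depth per library is unknown. The number of genes at this lowest value ran from 558 to 701 over DMSO, 592 to 705 over SR9243 and 618 to 730 over T3 libraries, and library medians from 6.8 to 6.84, 6.84 to 6.88 and 6.87 to 6.9. Levels of different genes are not compared, because the values are not per transcript length.

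In ENSAOCG00000014291, ENSAOCG00000005916 and ENSAOCG00000004792 the libraries of a treatment fell on separate levels with empty stretches between them. In ENSAOCG00000017064 most libraries scattered around 1 level, and 1 DMSO, 1 SR9243 and 2 T3 libraries were at the lowest value. Each gene had an empty stretch in every treatment, but the levels beside it did not always lie at the same values. The upper level of ENSAOCG00000014291 was lower in T3 (8.32 to 8.6) than in DMSO (8.86 to 9.18) or SR9243 (8.71 to 8.89). No DMSO library had ENSAOCG00000004792 at the lowest value. ENSAOCG00000014291 had a high and a low level, ENSAOCG00000005916 was either near the bottom of the scale or far above it, and ENSAOCG00000004792 and ENSAOCG00000017064 were at the lowest value in 4 libraries each and well above it in the other 26. Spread within groups chose these genes, so the size of the gaps is given as a description and was not tested.

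**Figure D1:**
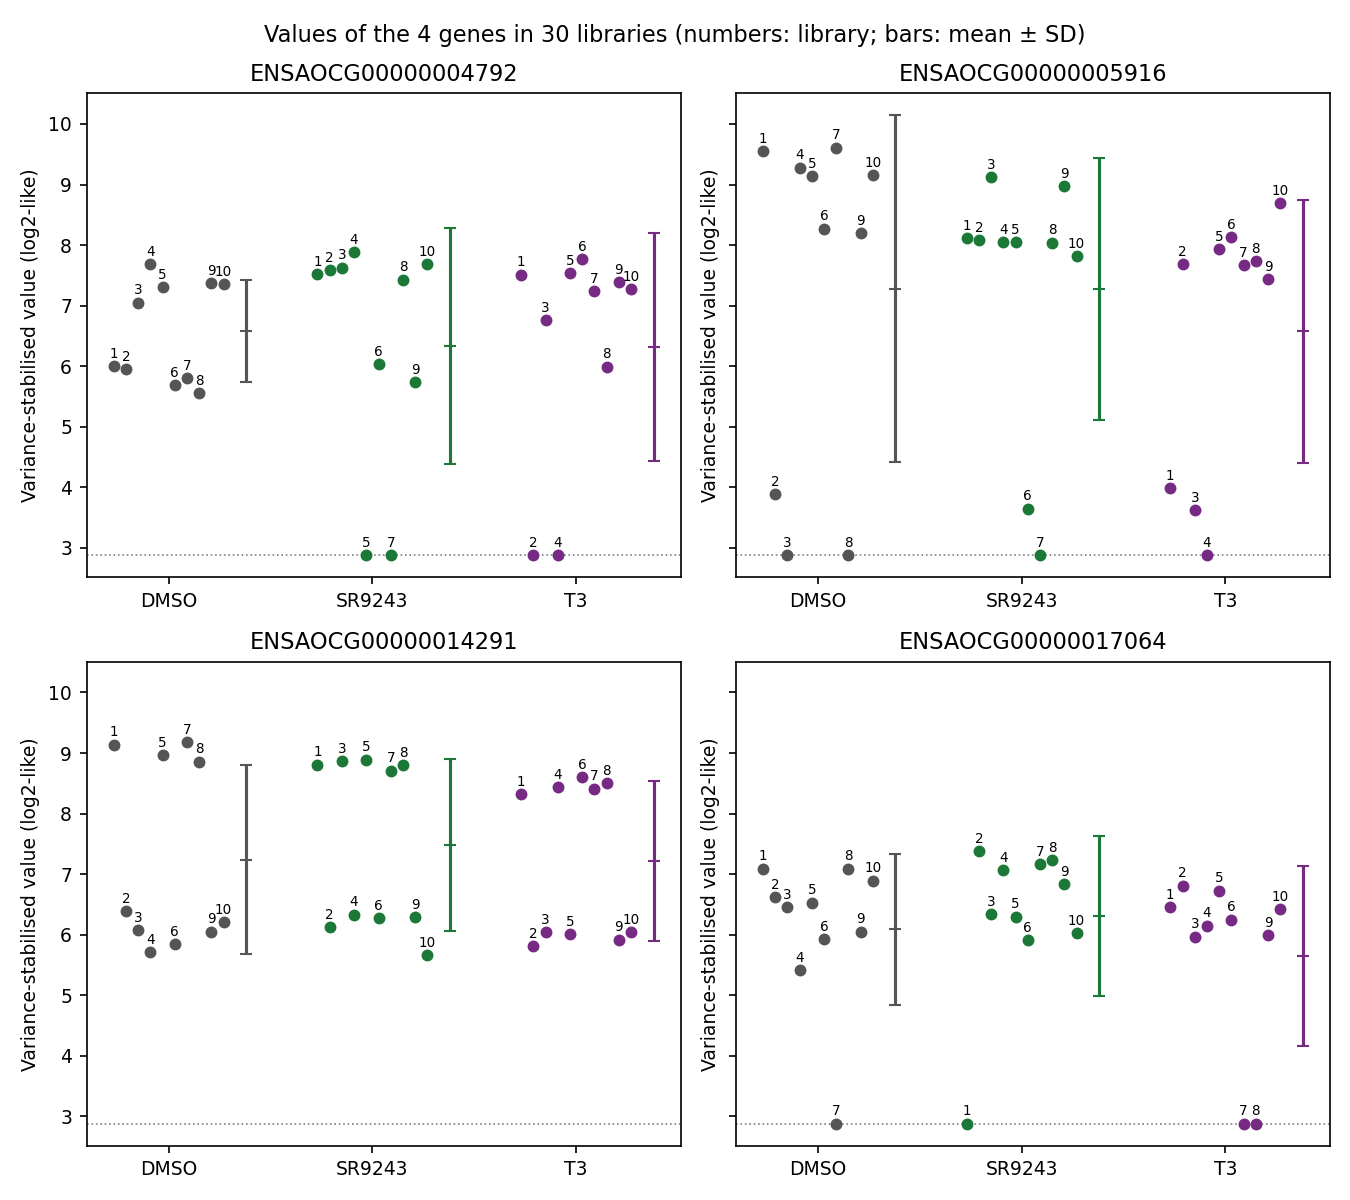
Variance-stabilised values (vertical axis, log2-like) of the 4 genes in DMSO, SR9243 and T3 libraries (horizontal axis), 1 point per library with its number, bars giving the mean ± SD of 10 libraries, and a dotted line at the lowest value of 2.88. ENSAOCG00000014291 shows an empty stretch between 6.39 and 8.32 in all 3 groups, and the other 3 genes have libraries on the dotted line.

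ENSAOCG00000014291 was the only one of the 4 genes above the lowest value in every library, running from 5.66 to 9.18. In DMSO, 6 libraries (2, 3, 4, 6, 9 and 10) lay between 5.71 and 6.39 and the other 4 (1, 5, 7 and 8) between 8.86 and 9.18. In SR9243, 5 libraries (2, 4, 6, 9 and 10) lay between 5.66 and 6.33 and 5 (1, 3, 5, 7 and 8) between 8.71 and 8.89. In T3, 5 libraries (2, 3, 5, 9 and 10) lay between 5.81 and 6.04 and 5 (1, 4, 6, 7 and 8) between 8.32 and 8.6. No library lay in the stretches between, which were 2.47 wide in DMSO, 2.38 in SR9243 and 2.28 in T3. The group means lay in the empty stretches, where no library was: 7.24 ± 1.56 (SD, n = 10) for DMSO, 7.48 ± 1.42 for SR9243 and 7.21 ± 1.32 for T3. The means were separated by less than 1 SD, which the rule fixes in advance for the SR9243 and T3 differences from DMSO. The full ranges of the groups overlap, as each group holds a low and a high level. The low levels overlapped. Within the high level, all T3 libraries (8.6 or lower) lay below all DMSO and SR9243 libraries (8.71 or higher). This was seen in the values and was not tested.

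ENSAOCG00000005916 had the widest spread, with values from 2.88 to 9.61. It lay at 3.99 or lower in 8 libraries, and 4 of these were at the lowest value: DMSO libraries 3 and 8, SR9243 library 7 and T3 library 4. The other 4 low libraries were DMSO library 2 at 3.89, SR9243 library 6 at 3.65, and T3 libraries 1 and 3 at 3.99 and 3.62. The remaining 22 libraries all had 7.44 or more. The empty stretch was 4.31 wide in DMSO, 4.17 in SR9243 and 3.45 in T3.

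The upper libraries of ENSAOCG00000005916 were themselves split when a distance of 0.5 between neighbouring values was taken to separate levels. In DMSO, libraries 6 and 9 lay at 8.27 and 8.2 and 5 libraries between 9.14 and 9.61. In SR9243, 6 libraries lay between 7.82 and 8.11, and libraries 3 and 9 at 9.12 and 8.97. In T3, 6 libraries lay between 7.44 and 8.13, and library 10 at 8.69. The DMSO libraries were 0.87 apart here, the SR9243 libraries 0.86 and the T3 libraries 0.56. The DMSO mean was 7.28 ± 2.86 (SD, n = 10), the SR9243 mean 7.28 ± 2.16 and the T3 mean 6.58 ± 2.17, with medians of 8.7, 8.05 and 7.68. DMSO and SR9243 means were thus alike to 2 decimals although the medians were not. All of these distances are below the group SDs, which include the low libraries. The rule fixes this for the mean differences from DMSO. Among the upper libraries, 6 of SR9243 (7.82 to 8.11) and 6 of T3 (7.44 to 8.13) lay below all of DMSO (8.2 or higher). SR9243 libraries 3 and 9 and T3 library 10 did not. This was seen in the values and was not tested.

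ENSAOCG00000004792 was at the lowest value in SR9243 libraries 5 and 7 and in T3 libraries 2 and 4, and in no DMSO library. Above that, a middle level was seen in all groups, though in T3 it was 1 library. A distance of 0.5 between neighbouring values was again taken to separate levels. In DMSO, 5 libraries (1, 2, 6, 7 and 8) lay between 5.56 and 6.0 and 5 (3, 4, 5, 9 and 10) between 7.05 and 7.69. In SR9243, libraries 6 and 9 lay at 6.03 and 5.74 and 6 libraries between 7.43 and 7.88. In T3, library 8 alone lay at 5.99, and 7 libraries lay between 6.76 and 7.77. Library 3 at 6.76 was just close enough to the next value, 7.24, to be placed in this upper level. The distance between the middle and upper levels came to 1.05 for DMSO, 1.4 for SR9243 and 0.77 for T3. The mean was 6.58 ± 0.84 (SD, n = 10) for DMSO, 6.33 ± 1.95 for SR9243 and 6.32 ± 1.88 for T3. The narrower DMSO group is the one without a library at the lowest value.

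ENSAOCG00000017064 was at the lowest value in DMSO library 7, SR9243 library 1 and T3 libraries 7 and 8. The other DMSO libraries lay between 5.42 and 7.09, the other SR9243 libraries between 5.91 and 7.38 and the other T3 libraries between 5.97 and 6.81. Apart from DMSO library 4 at 5.42, which was 0.51 below its neighbour, these upper values formed no separate levels. The mean was 6.09 ± 1.25 (SD, n = 10) for DMSO, 6.31 ± 1.32 for SR9243 and 5.65 ± 1.49 for T3. The spread of this gene rested on few libraries. Without DMSO library 7 its DMSO SD was 0.56, and without SR9243 library 1 its SR9243 SD was also 0.56, both below the minimum that chose it. DMSO library 7 also stood apart over all tested genes, with a root-mean-square distance to the mean of the other DMSO libraries of 0.72, as did DMSO library 4 with 0.437, against 0.276 to 0.387 for the other 28 libraries in their groups. The part of this in the values of this gene was not tested.

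Some values lay close to the limits that chose the genes. The mean of ENSAOCG00000017064 over all libraries was 6.02, just above the minimum of 6. The smallest group SDs just inside the minimum of 0.8 were 0.84 (ENSAOCG00000004792, in DMSO) and 1.25 (ENSAOCG00000017064, in DMSO). Of the genes that met all other conditions, the nearest below it had smallest group SDs of 0.75 and 0.7. ENSAOCG00000005916 had a T3 difference of -0.71, inside the limit of 0.8, and the 3 genes that failed this limit alone had T3 differences of -0.95, -1.04 and 1.41. The membership changed with single libraries. With each of the 30 libraries left out in turn, ENSAOCG00000014291 failed the rule in 9 cases, ENSAOCG00000004792 and ENSAOCG00000005916 in 12 each and ENSAOCG00000017064 in 13. The group SDs then stayed at 1.3 or more for ENSAOCG00000014291 and at 1.61 or more for ENSAOCG00000005916. These 2 genes therefore failed by the limits on the mean differences and not by the SD minimum. For ENSAOCG00000004792 an SD fell below the minimum only without DMSO library 4 (0.79), and its other failures were also by mean differences. For ENSAOCG00000017064 this happened only without DMSO library 7 or SR9243 library 1. The other libraries whose removal took it out had values of 6.62 or more, and its mean lay close to the minimum of 6. The number of genes that met the rule then ran from 0, without DMSO library 8, to 7, without DMSO library 9. It was 1 without DMSO library 1, DMSO library 2 or SR9243 library 4, and 2 without SR9243 library 1, SR9243 library 2, T3 library 2 or T3 library 5. Without DMSO libraries 4 and 7 it was 2, ENSAOCG00000004792 and ENSAOCG00000014291.

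**Figure D2:**
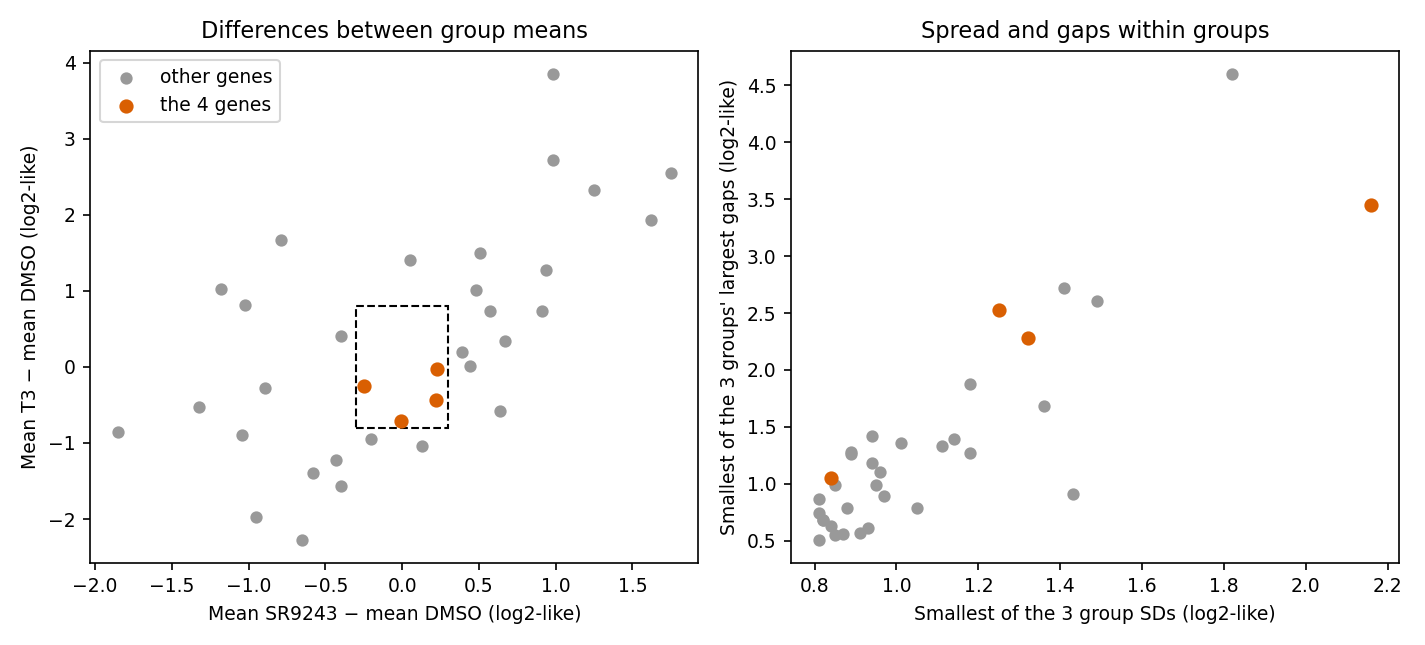
The 34 genes that passed the SD and mean minima: left, the SR9243 and T3 differences from DMSO (log2-like), with the dashed box marking the limits of 0.3 and 0.8; right, the smallest of the 3 groups' largest gaps (vertical) against the smallest of the 3 group SDs (horizontal). The 4 genes inside the box are in orange, and their smallest largest gaps were 1.05, 2.28, 2.53 and 3.45.

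The gaps were set beside those of other genes, as a description, by taking the largest distance between neighbouring values in each group and keeping the smallest of the 3. All 4 genes had a distance of at least 1 in every group, against 23 of the 15224 tested genes with a mean of at least 6 (0.151%). A distance of at least 2 in every group was found for 3 of the 4 and for 6 of the 15224 (0.0394%), and all 6 were among the 34 genes that passed the SD and mean minima (17.6%). By this measure ENSAOCG00000005916 ranked 2 among the 15224 genes, ENSAOCG00000017064 5, ENSAOCG00000014291 6 and ENSAOCG00000004792 21. A wide gap raises the SD, so the rule favours such genes: among the 34 genes that passed the SD and mean minima, 18 had a distance of at least 1 in every group, the 4 genes included. At least 1 library at the lowest value was found for 3 of the 4 genes, for 9 of the 34 and for 25 of the 15224 (0.164%).

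Differences from the DMSO means were small beside this spread, as the rule requires. The SR9243 mean differed from the DMSO mean by -0.01 for ENSAOCG00000005916, 0.23 for ENSAOCG00000014291, -0.25 for ENSAOCG00000004792 and 0.22 for ENSAOCG00000017064. The T3 mean differed by -0.71, -0.03, -0.25 and -0.44 in the same order. With limma over 22615 tested genes, two-sided, with Benjamini-Hochberg adjustment and a threshold of 0.05, 0 of the 4 genes were called between SR9243 and DMSO (29% of all tested genes were called), 0 between T3 and DMSO (50.5%) and 0 between the treatments (34.7%). At an unadjusted p below 0.05 the counts were also 0, against 39.1%, 55.8% and 43.9% of all tested genes. The rule used these differences, so nothing is read from these counts. The libraries low in ENSAOCG00000005916 numbered 3 for DMSO, 2 for SR9243 and 3 for T3, and those low in ENSAOCG00000014291 numbered 6, 5 and 5. Low libraries of ENSAOCG00000004792, by the widest empty stretch over all libraries, numbered 0, 2 and 2, and those of ENSAOCG00000017064 1, 1 and 2. The limits on the mean differences bear on these counts.

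The next question was whether the genes varied together. For all 4, a library was taken as low when it lay below the widest empty stretch over the 30 libraries, which gave 8 low libraries for ENSAOCG00000005916, 16 for ENSAOCG00000014291 and 4 each for ENSAOCG00000004792 and ENSAOCG00000017064. No library was low for more than 2 genes: 5 were low for none, 18 for 1 and 7 for 2. Of the 16 possible combinations of high and low, 8 were seen. The most common, in 11 libraries, was low ENSAOCG00000014291 with the other 3 genes high. ENSAOCG00000005916 and ENSAOCG00000004792 were low together in SR9243 library 7 and T3 library 4. ENSAOCG00000005916 and ENSAOCG00000014291 were low together in 4 libraries. The 4 libraries low in ENSAOCG00000017064 were low in none of the other 3 genes. Counts that the numbers of low libraries alone would give were not computed, so these coincidences are a description. The middle level of ENSAOCG00000004792 counted as high here.

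**Figure D3:**
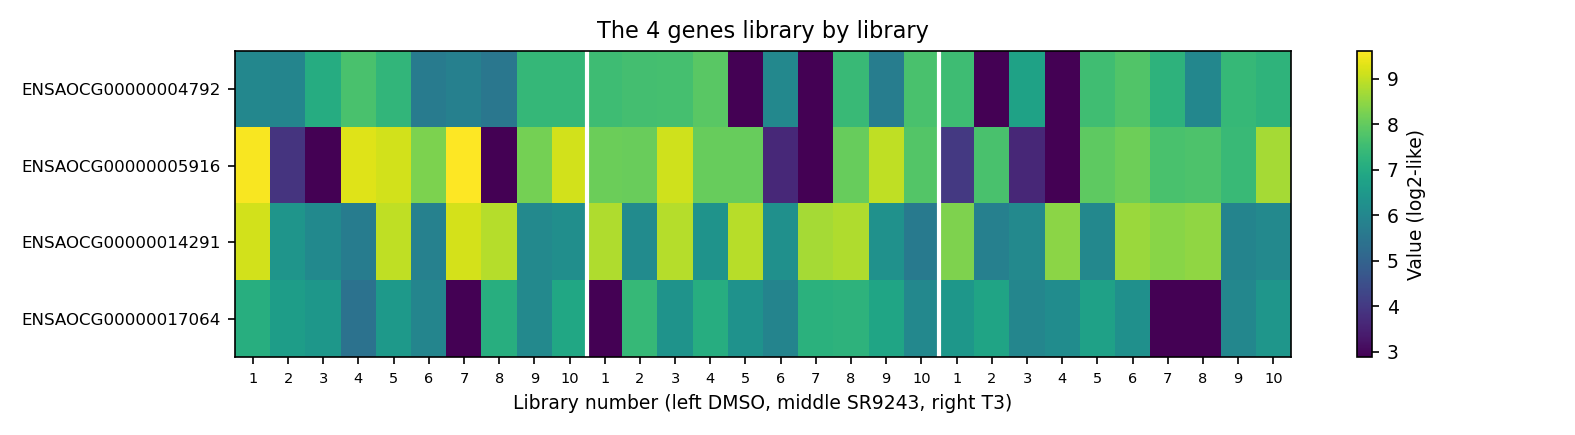
Values of the 4 genes (rows; colour, log2-like) in each library (columns, numbers within DMSO, SR9243 and T3 from left to right). The purple cells, values of 3.99 or lower, fall mostly in different columns for different genes, with at most 2 in a column; ENSAOCG00000014291 has none and alternates between blue and yellow-green.

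Correlations of the deviations from group means gave the same picture over the 6 pairs of genes. Where libraries lie on separate levels, such a correlation depends in part on how often levels coincide, and the size of this part was not measured. The mean over the 6 pairs was -0.08 over 30 libraries, and -0.07, -0.06 and -0.12 within DMSO, SR9243 and T3. The highest was 0.35 between ENSAOCG00000004792 and ENSAOCG00000005916 (permutation within groups, two-sided, p = 0.0379, adjusted p = 0.227 over 6 pairs; Spearman's rho 0.33, p = 0.0923, adjusted p = 0.526). It was positive in each group, at 0.29, 0.52 and 0.33. Without the 2 libraries whose deviation of ENSAOCG00000004792 lay farthest from its median, it was 0.31. This did not remove all 4 libraries in which that gene was at the lowest value. The lowest was -0.3 between ENSAOCG00000014291 and ENSAOCG00000017064 (permutation p = 0.116, adjusted p = 0.348), where Spearman's rho was -0.08 (permutation p = 0.674, adjusted p = 1.0). No pair passed after adjustment. Clustering at an average correlation of at least 0.6 left each gene by itself, and a module of 5 genes could not arise from 4.

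The genes were then set against the whole table, by counting how many of the tested genes had a correlation of at least 0.6 in size with each over the 30 deviations. These libraries are shared by all genes, so the counts describe and do not test. ENSAOCG00000014291 had 8 such genes, ENSAOCG00000004792 had 11, ENSAOCG00000005916 had 49 and ENSAOCG00000017064 had 106. The median tested gene had 124, with quartiles of 23 and 802. Of all tested genes, 6.58% had fewer than ENSAOCG00000014291, 11.6% fewer than ENSAOCG00000004792, 36.6% fewer than ENSAOCG00000005916 and 47.8% fewer than ENSAOCG00000017064. The count for ENSAOCG00000017064 was 25 without DMSO libraries 4 and 7. Those of ENSAOCG00000004792 and ENSAOCG00000014291 were then 24 and 16. With deviations taken from the means of libraries 1 to 5 and 6 to 10, ENSAOCG00000014291 had 17 and ENSAOCG00000004792 had 14, so the order of these genes turned. For these alternatives the median over all tested genes was not counted, so they do not show where the 4 genes stand beside other genes.

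**Figure D4:**
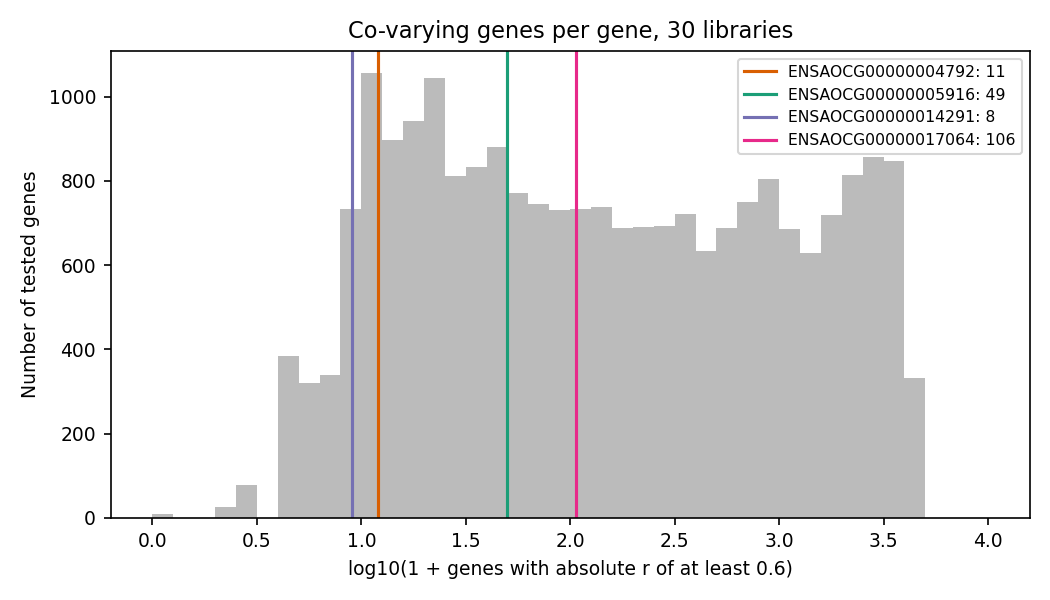
Number of tested genes (vertical axis) by how many other genes they correlated with at 0.6 or more in size (horizontal axis, log10 of 1 plus the count), with lines at the 4 genes. The lines stand at 8, 11, 49 and 106, all left of the median of 124.

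By the correlation of deviations, the gene most like a member was ENSAOCG00000011485, at 0.86 to ENSAOCG00000004792 (rho 0.64 on ranks within groups). It was singled out after its values were seen. The correlation was 0.91 within SR9243 and 0.88 within T3, and 0.41 within DMSO, where no library was at the lowest value of ENSAOCG00000004792. Its lowest SR9243 values, 4.6 and 5.1, were in libraries 7 and 5, and its lowest T3 values, 5.41 and 5.57, in libraries 2 and 4. These are the 4 libraries in which ENSAOCG00000004792 was at the lowest value. ENSAOCG00000011485 itself was never at that value, and it averaged 5.61 ± 0.25 (SD, n = 10) for DMSO, 5.98 ± 0.64 for SR9243 and 6.53 ± 0.68 for T3. For the other members the highest such correlation with any tested gene was lower: 0.74 for ENSAOCG00000005916, 0.71 for ENSAOCG00000017064 and 0.65 for ENSAOCG00000014291. On ranks within groups this order did not hold. ENSAOCG00000004528 had a rho of 0.74 with ENSAOCG00000005916, and ENSAOCG00000000161 one of 0.67 with ENSAOCG00000004792, against 0.64 for ENSAOCG00000011485. Genes were not ordered by rho over the whole table. The strongest negative correlations of deviations were -0.69 for ENSAOCG00000004792, -0.68 for ENSAOCG00000005916, -0.71 for ENSAOCG00000017064 and -0.63 for ENSAOCG00000014291. All these highest and lowest correlations were picked from 22615 tested genes, so their size is a description and was not tested.

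**Figure D5:**
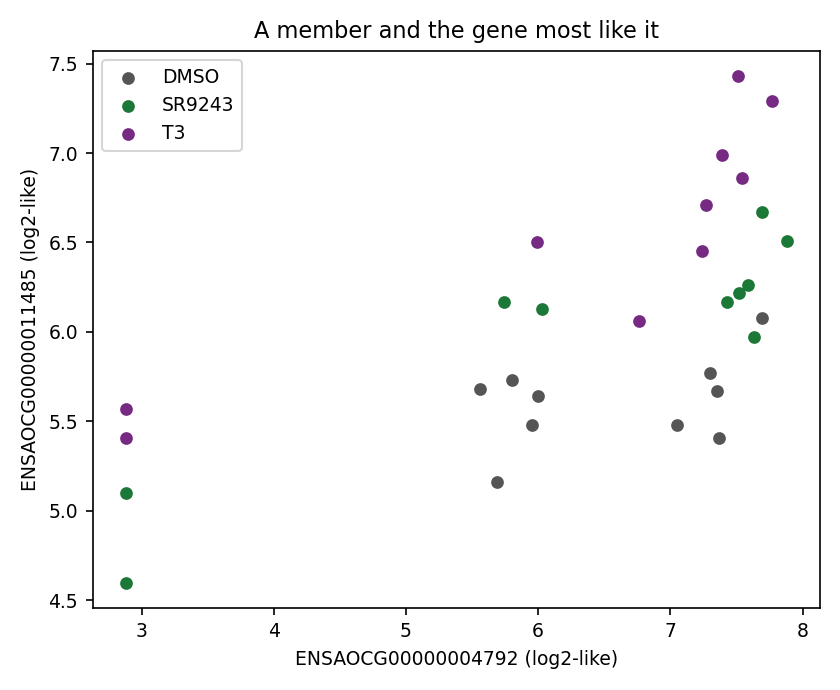
ENSAOCG00000011485 (vertical axis) against ENSAOCG00000004792 (horizontal axis), both log2-like, 1 point per library coloured by group. The 4 points at 2.88 on the horizontal axis have the lowest values of ENSAOCG00000011485 in their own group, 4.6 and 5.1 in SR9243 and 5.41 and 5.57 in T3.

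Within SR9243 and within T3, libraries numbered up to 5 differ from those numbered from 6 in 863 and 713 of the tested genes, a division known from earlier results and given by no label. The 4 genes were set against it with limma, with a mean for each set of 5 and adjustment over 22615 genes. It called 0 of the 4 genes in SR9243 (3.82% of all tested genes were called), 0 in T3 (3.15%) and 0 in DMSO (0.0752%). At an unadjusted p below 0.05 there were also 0 in each (15.9%, 11.4% and 7.3% of all tested genes). Spread within groups, of which this difference is a part, chose the genes, so nothing is read from the counts of this comparison. With the T3 libraries fitted alone, 2 of the 4 had an unadjusted p below 0.05 (16.6% of all tested genes) and 0 were called (4.47%). In T3 the low libraries of 3 genes each fell on 1 side of the division: 2 and 4 for ENSAOCG00000004792, 1, 3 and 4 for ENSAOCG00000005916, and 7 and 8 for ENSAOCG00000017064. Libraries 6 to 10 then differed from 1 to 5 by 1.61, 2.71 and -1.54 in this order, none of them called. In SR9243 the low libraries were 5 and 7 for ENSAOCG00000004792, 6 and 7 for ENSAOCG00000005916, and 1 for ENSAOCG00000017064. The SR9243 differences were -0.75, -2.01 and 0.64 in the same order, each opposite in sign to that in T3. In DMSO they were -0.44, 0.68 and -0.65. The low libraries of ENSAOCG00000014291 lay on both sides in all 3 groups.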

How the data were processed

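The values analysed are variance-stabilised counts on a log2-like scale, from 2.88 to 18.7, in a single table deposited by the authors. Libraries were stranded and poly(A)-selected, per the labels' protocols, and the submitters' processing notes name FastQC 0.11.8 and kallisto 0.46.1. Not given in the sources used here are the genome build, the annotation and the tool that stabilised the variance. All 30 columns were matched to samples by treatment and library number (0 left over), with the column prefix TH read as the T3 group.

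The members, lists and tests were chosen with earlier results of these data known. The gene lists by symbol could not be applied, since 0 IDs had a symbol, and the rule for named genes then allows 4 IDs, of the widest spread and of the largest module. No module formed, so all 4 members are given, and ENSAOCG00000011485 was added after its values were seen. The 22615 genes that exceeded the lowest value in 10 or more libraries were fitted with limma 3.58.1 in R 4.3.3 (mean-variance trend, treatment as the only factor). The fit and the correlation counts were tested on simulated normal values. Such values lack the gaps seen here, so these tests do not cover genes like the 4. Correlations used deviations from group means, with 100000 permutations within groups, in Python 3.11.15, NumPy 2.4.6 and SciPy 1.17.1. No libraries were counted as duplicates: the highest correlation within a group was 0.987. Depth is unknown, so no counting interval is given.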

Additional observations from a re-analysis of the deposited data

Results flagged for a closer look

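ENSAOCG00000017064 had a single library far from the other 9 in DMSO and again in SR9243. In DMSO this was library 7 at 2.88, with a gap to the next library of 0.6 of the group's range. In SR9243 it was library 1 at 2.88, with a gap of 0.67 of the range. Both are above Dixon's critical value for 10 samples, which chance passes in about 1 group of 20 when a gene is not chosen for its spread. This gene was chosen for it, and its SD in either group falls below the minimum without that library, so that rate does not apply and the gaps are a description only. In T3, libraries 7 and 8 were both at 2.88, so no single library stood apart.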

How the results depend on the processing

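Over 31 combinations of a comparison with an alternative setting (filters, equal library medians, no variance trend, libraries 1 to 5 and 6 to 10 as a term, single groups, DMSO libraries 4 and 7 left out, replicate block), the count of the 4 genes called was 0 each time. The rule limited the SR9243 and T3 differences from DMSO, so 0 in the treatment comparisons says nothing about stability. Nor does 0 in the comparisons of libraries 1 to 5 with 6 to 10, because wide spread within groups chose the genes. Only 1 of the 4 genes remained to be tested when every library had to be above the lowest value. The replicate block used the library number, which is not known to pair libraries: over 30 same-numbered pairs the correlation of deviations ran from -0.28 to 0.18 and was above 0.1 in 7. With this block 0 of the 4 genes were called in each comparison, and 27.4% of all genes between SR9243 and DMSO, 49.2% between T3 and DMSO and 33% between the treatments. The division of DMSO by number called 17 genes, and 0 with DMSO fitted alone. The number of genes that met the rule was 5 with an SD minimum of 0.7, 3 with 0.9, 4 with equal medians and 4 with SDs around the means of libraries 1 to 5 and 6 to 10. It was 2 without DMSO libraries 4 and 7, and 0 to 7 with single libraries left out. With a median absolute deviation in place of the SD, 3 genes met it and 0 of them were among the 4. The mean correlation of the 4 genes was -0.11 to -0.07 with single libraries left out and 0.04 on ranks, against -0.08. A module of 5 genes cannot arise from 4, so the alternatives for modules say nothing about stability, and the planned measure within modules in other libraries could not be computed. Counts of correlated genes, whose alternatives were chosen after seeing the data, were 0 to 3 at a correlation of 0.7. The median tested gene then had 9, with quartiles of 1 and 149. Counts for the 4 genes were 5 to 73 on ranks, 8 to 99 with equal medians and 16 to 66 without DMSO libraries 4 and 7. They were 14 to 107 with deviations from the means of libraries 1 to 5 and 6 to 10.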

Other observations

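ENSAOCG00000014291 was on the same side of its empty stretch in all 3 groups for 6 of the 10 library numbers: numbers 1, 7 and 8 were high in DMSO, SR9243 and T3, and numbers 2, 9 and 10 were low in all 3. The other 4 numbers were mixed. ENSAOCG00000004792 was on the same side for 6 numbers, ENSAOCG00000017064 for 7 and ENSAOCG00000005916 for 3, always high, where genes with few low libraries are high for most numbers in any case. None of these 3 genes had a number that was low in all groups, which could not occur for ENSAOCG00000004792, with 0 low DMSO libraries. This pattern was noticed in the data and was not tested, and the labels do not say that a number marks a shared clutch, beaker or day.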
